A study of Mus musculus with 6 samples.

Results

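The insulin-like growth factor (IGF) axis was described as 10 genes taken from the gene table by symbol: the ligands Igf1 and Igf2, the receptors Igf1r and Igf2r, and the binding proteins Igfbp2 to Igfbp7. They are 10 of the 26018 genes listed, and each symbol stood on 1 row. RNA was sequenced in bulk from the uterus of untreated 6-week-old female mice of matched body weight, with 1 library per animal. The control group held 3 mice with floxed alleles of the transcription factor gene Tcf21 (labelled Tcf21f/f), and the conditional knockout group (cKO, labelled Tcf21d/d) held 3 mice with those alleles deleted. The comparison asks which genes may lie downstream of TCF21 in the developing uterus. The Cre driver, and with it the cell type in which the allele was deleted, is not stated in the labels.

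IGF1 and IGF2 are secreted growth factors that act through IGF1R, a receptor tyrosine kinase, while IGF2R takes up IGF2 and delivers it to lysosomes. Most of either ligand outside the cell is held by IGF binding proteins, which can carry it, store it in the matrix or keep it from the receptor, and proteases free it again. In the uterus, IGF1 is made mainly by stromal cells under estrogen and is needed for uterine growth.

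A normalised read count is the number of reads on a gene divided by the size factor of its library, and libraries held 14584450 to 16579573 reads on genes. Tcf21 was at 341.4, 151.9 and 144.1 in controls and at 26, 0 and 0 in cKO animals (limma, adjusted p = 0.0765). It was called without cKO replicate 1 (adjusted p = 0.00528), with a pseudocount of 5 (0.0301) and with a replicate block (0.0126), and in none of the other 14 fits. As a share of reads, smooth muscle markers were at 1.58 ± 0.30% (SD, n = 3) in controls against 0.592 ± 0.0886% in cKO animals, and skeletal muscle markers at 4.79 ± 1.63% against 8.64 ± 1.60%. Liver markers stood at 1.82% in control replicate 1, with no other library above 0.014%, and uterine epithelium markers ranged from 0.00487 to 0.0562% in controls and from 0.0035 to 0.00899% in cKO animals. The libraries therefore differed in more than Tcf21. In whole tissue, fewer cells of a type and less RNA per cell cannot be told apart.

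Of the 10 genes, only Igfbp2 was called lower in the cKO uteri, and no member was called higher. The mean of Igfbp2 was 20.3 times higher in controls than in cKO animals, whereas the means of the other 5 binding protein genes were 1.08 to 1.32 times as high in cKO animals as in controls. The ligand gene Igf1 varied 3.00-fold among the controls alone, and Igf2 was counted at no more than 9 reads in a library, an uncertain count. Among the 9 members that passed the filter on low reads, 1 fell and the other 8 stayed short of the threshold, a limma adjusted p of 0.05 with adjustment over 16314 genes. Over all genes tested, 0.889% were called lower and 0.276% higher. In simulated libraries, 3 against 3, the limma test recovered 0 of 50 genes changed 1.5-fold and 9 of 50 changed 2-fold. A change of the size seen in the other 5 binding protein genes could thus go uncalled. These 9 members had a median log2 fold change of 0.17, against 0.002 for all genes tested. The control and cKO values of 4 members did not overlap: Igfbp2 and Igf1r were lower in each cKO library, as were 10.5% of all tested genes, and Igfbp5 and Igfbp6 were higher, as were 9.04%. Counts made with DESeq2 and with edgeR's quasi-likelihood test gave the same 1 member, where these tools called 5.33% and 0.926% of those 16314 genes in either direction.

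**Figure D1:**
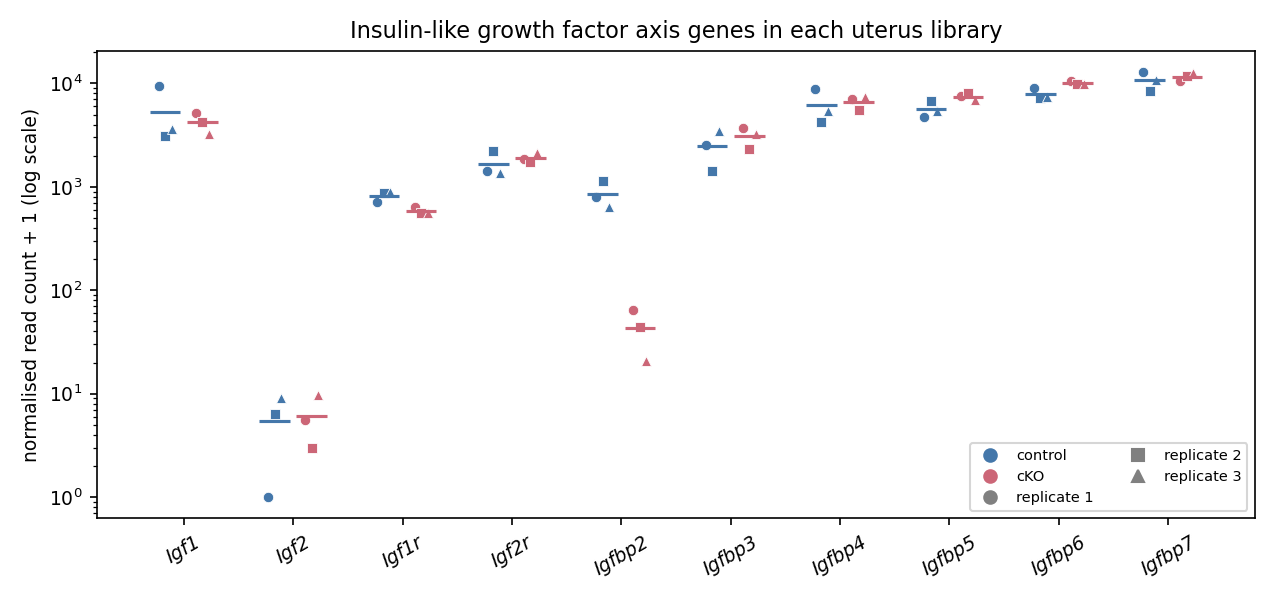
Normalised read count plus 1 of each of the 10 genes (log scale) in the 3 control and 3 cKO libraries, with a point per library and a bar at the group mean. The 3 cKO values of Igfbp2, from 19.9 to 64.1, sit apart from its control values of 638.8 to 1144.1, and Igf2 stays under 9 in every library.

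Igfbp2 encodes a secreted binding protein that holds both ligands and can also attach to cell surface integrins. It lies on chromosome 1 at 72824503 to 72852474 on the plus strand (GRCm38), with 1847 exon bases that no exon of another gene overlaps. Control replicates 1 to 3 had 796.2, 1144.1 and 638.8 normalised reads on Igfbp2, and cKO replicates 1 to 3 had 64.1, 42.9 and 19.9, the latter from 69, 44 and 18 reads. Every cKO library was below every control, and the lowest control value was 9.96 times the highest cKO value. The cKO animals differed among themselves: the control mean was 13.4, 20.04 and 43.2 times the value of cKO replicates 1, 2 and 3. The fitted log2 fold change was -4.42 ± 0.42 (SE), its 95% confidence interval ran from -5.36 to -3.47, and limma gave an adjusted p of 0.00253. This was the 19th most negative fold change among the 145 genes called lower. In the authors' deposited table, Igfbp2 stands at a log2 fold change of -4.34 (adjusted p = 6.07e-29), and the other 9 members have adjusted p values of 0.236 to 0.991. Of all genes in the authors' deposited table, 3.21% are below 0.05.

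The gene next to Igfbp2 is Igfbp5, on the opposite strand, with the 2 genes' ends facing each other and 5457 bases between them. The stretch before the start of each gene is shown because these neighbours of 1 gene family had log2 fold changes of -4.42 and 0.41. The sequences are from RefSeq (GRCm38.p6), 250 bases directly before the annotated start, 5′ to 3′ on the strand of the gene. Capitals mark CANNTG, the E-box, a general pattern for basic helix-loop-helix factors, the family of TCF21. The pattern reads the same on both strands, and which of its forms TCF21 binds was not tested.
Igfbp2, chr1:72824230-72824479, plus strand: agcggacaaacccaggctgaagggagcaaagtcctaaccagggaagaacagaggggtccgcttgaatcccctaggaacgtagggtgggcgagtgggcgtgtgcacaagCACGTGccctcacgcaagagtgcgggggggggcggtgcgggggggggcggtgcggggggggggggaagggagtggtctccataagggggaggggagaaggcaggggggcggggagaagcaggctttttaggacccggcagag
Igfbp5, chr1:72874866-72875115, minus strand: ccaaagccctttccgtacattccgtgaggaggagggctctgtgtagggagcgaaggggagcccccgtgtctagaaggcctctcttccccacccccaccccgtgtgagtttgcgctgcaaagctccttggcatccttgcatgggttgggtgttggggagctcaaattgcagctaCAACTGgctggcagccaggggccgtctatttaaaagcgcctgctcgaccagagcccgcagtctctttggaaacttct
RefSeq lists a second start for Igfbp2, and the stretch before it (chr1:72825137-72825386), not shown, holds CATTTG 55 bases before that start. Each stretch shown holds 1 match: CACGTG begins 142 bases before the first start of Igfbp2, and CAACTG begins 77 bases before that of Igfbp5. Such a match is common, since 66.2% of the 32851 promoter stretches of this length in the table hold at least 1. Of the 10 members, all had a promoter in the table and 8 had a match in at least 1 of them. CAGCTG, a form held by 13.0% of all stretches, was found before Igf1 and not in the windows of the other members. CAGATG, held by 7.51%, was found before Igfbp4 alone. The letters say nothing about binding in these uteri. Of the 5 other genes listed within 250 kilobases of Igfbp2, 3 passed the filter on low reads, Smarcal1, Rpl37a and Igfbp5, with log2 fold changes of 0.12, -0.10 and 0.41 and no call.

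Smooth muscle markers were lower in the same 3 libraries as Igfbp2. Of 12 smooth muscle markers, 9 were called lower, where 0.889% of all tested genes were. All cKO values lay below all control values for 10 of them, where 10.5% of all tested genes did so. The summed share of the 12 was 1.23 to 1.77% of reads in the control mice and 0.515 to 0.689% in cKO animals. Des, the highest of the 12 in every library, did not fall, with means of 72715.5 in controls and 76229.9 in cKO animals. The sum therefore fell less than markers such as Actg2 (means of 18631 and 199) and Myh11 (32446 and 1400). Of 12 uterine stroma markers, 4 had all cKO values below all control values, where 10.5% of all tested genes did, and none was called. The control and cKO means of these 4 were 999.8 and 293.6 (Hoxa10), 477.9 and 24.9 (Hoxa11), 615.6 and 45.2 (Hand2), and 574.3 and 282.7 (Wnt5a). The summed stroma share overlapped, at 0.301 to 0.385% in controls and 0.238 to 0.324% in cKO animals. Vim (means of 16588.9 and 22159.7) and Dcn (17399.1 and 14409.5), the highest of the 12 in every library, weigh most in that sum. Of 8 macrophage markers, 4 were higher in each cKO library than in any control, where 9.04% of all tested genes were, and none was called. The summed macrophage share was 0.0917 to 0.227% in controls and 0.194 to 0.252% in cKO animals. Epithelial and liver shares overlapped between the groups, and skeletal muscle shares lay on either side of a narrow gap. The epithelial share was 0.0562, 0.0177 and 0.00487% in control replicates 1 to 3, and 0.00899, 0.0035 and 0.00451% in the cKO replicates. The skeletal muscle share was 3.30, 6.53 and 4.55% in these controls, and 6.80, 9.77 and 9.33% in the cKO replicates. Liver markers, which stand out in control replicate 1, took 0.00725 and 0.014% of reads in the other controls, and without control replicate 1 the log2 fold change of Igfbp2 was -4.45 (limma adjusted p = 0.00311). The part of smooth muscle, stroma, macrophages, skeletal muscle, epithelium or liver in the Igfbp2 difference was not tested.

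**Figure D2:**
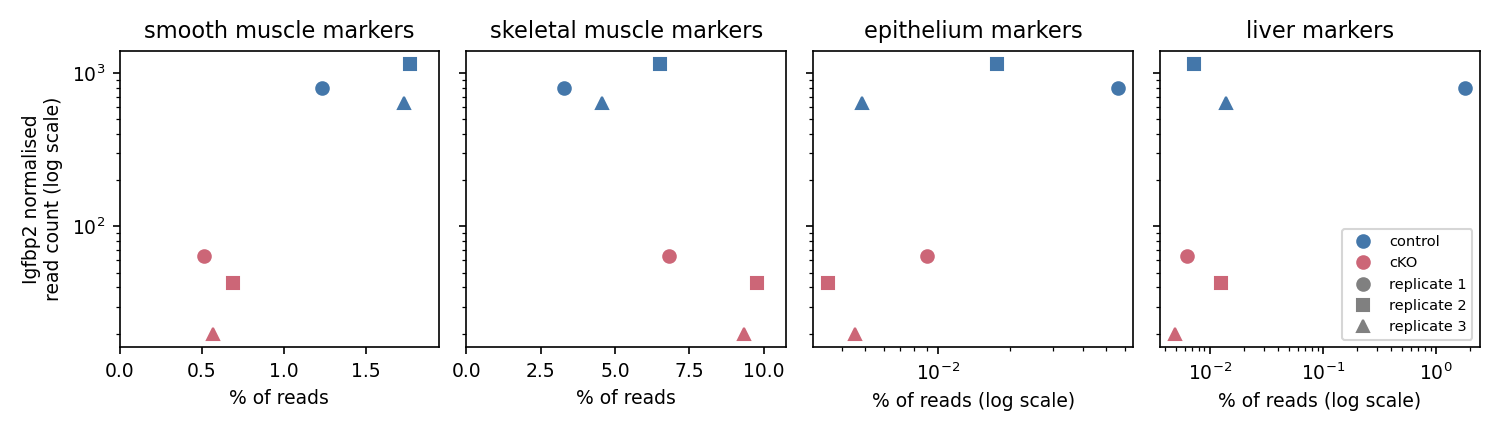
Normalised read count of Igfbp2 (log scale) against the percentage of reads on marker genes of smooth muscle, skeletal muscle, uterine epithelium and liver, with 1 point per library. The smooth muscle sum includes Des, which did not fall (means of 72715.5 in controls and 76229.9 in cKO animals). The controls and cKO libraries separate along the smooth muscle axis, from 1.23% up in controls and up to 0.689% in cKO animals, and, by a narrower gap, along the skeletal muscle axis (up to 6.53% and from 6.80%), and they overlap along the epithelium and liver axes.

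The genes with the most similar pattern to Igfbp2 over the 6 libraries were sought by the root mean square difference of their log2 values after each gene was centred on its mean. The nearest 5 protein-coding genes were Dpp6, Mylk, Myh11, Nek10 and Lmod1, with differences of 0.40, 0.43, 0.48, 0.52 and 0.54, where the median tested gene differed by 2.30. Dpp6, an accessory protein of potassium channels, was at 704.7, 595.0 and 272.2 in controls and at 49.2, 31.2 and 17.7 in cKO animals. Mylk encodes the kinase of the smooth muscle myosin light chain, Myh11 the smooth muscle myosin heavy chain and Lmod1 a leiomodin of smooth muscle filaments, with log2 fold changes of -4.13, -4.50 and -3.55. Nek10 was at 13.4, 30.6 and 16.0 in controls and without a read in any cKO library, where 3 reads would give 2.79 to 3.31. All of these genes except Nek10 were called lower. Because they were chosen for likeness to Igfbp2 in these same 6 libraries, their direction and size of change are not separate evidence. Dpp6 was not called without cKO replicate 2 (limma adjusted p = 0.0546) or by limma-voom (0.0663).

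**Figure D3:**
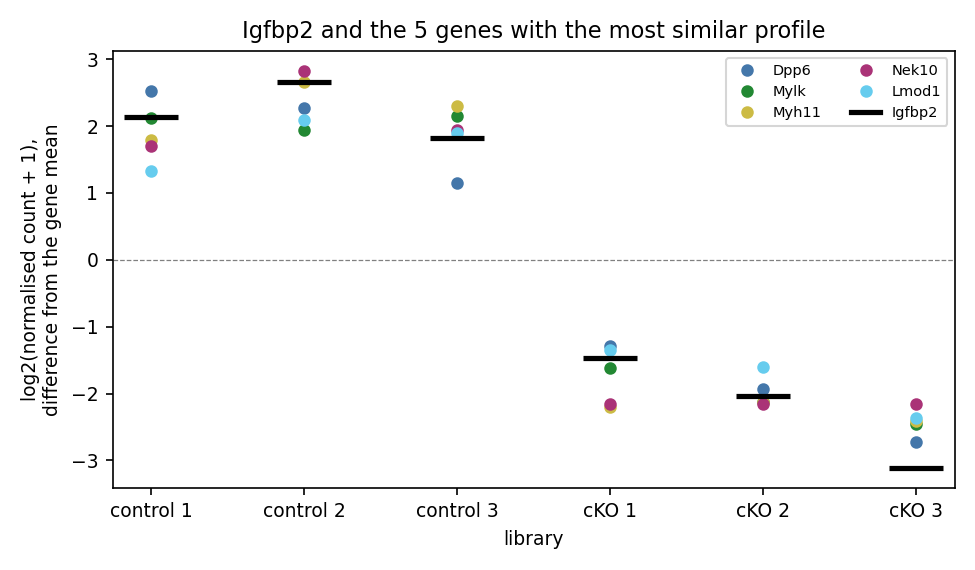
Log2 normalised count plus 1, as the difference from each gene's own mean, for Igfbp2 (black bars) and the 5 genes nearest to it, in the 3 control and 3 cKO libraries. All 6 genes lie above their means in the controls and below them in the cKO animals, which follows from choosing the 5 by likeness to Igfbp2.

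The 5 other binding protein genes were abundant in both groups. Igfbp5 encodes a matrix-bound binding protein known from muscle and stroma. It had normalised read counts of 4767.3, 6731.5 and 5417.9 in the control mice and 7494.0, 8015.5 and 6848.3 in cKO animals, so the groups did not overlap. The log2 fold change was 0.41 ± 0.18 (SE, 95% confidence interval -0.0007 to 0.83), with an adjusted p of 0.366. Igfbp6 encodes a binding protein that prefers IGF2. It was at 9028.6, 7293.2 and 7308.4 in controls and at 10552.1, 9779.6 and 9885.7 in cKO animals, again without overlap, and its log2 fold change was 0.36 ± 0.17 (interval -0.02 to 0.75, adjusted p = 0.401). These 2 genes separated the groups without passing the test. Scaled by library totals, or by totals without mitochondrial, skeletal muscle and liver genes, the groups overlapped for Igfbp5 and not for Igfbp6. In the same libraries, the skeletal muscle share was 3.30 to 6.53% in the control mice and 6.80 to 9.77% in cKO animals. Of 15 tested skeletal muscle markers, 8 were higher in each cKO library than in any control, where 9.04% of all tested genes were, and none was called. The part of skeletal muscle in the Igfbp5 and Igfbp6 values was not tested.

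Igfbp3, Igfbp4 and Igfbp7 overlapped between the groups. Igfbp3, the main carrier of IGFs in blood plasma, was at 2559.2, 1409.2 and 3469.6 in controls and at 3734.5, 2318.9 and 3218.6 in cKO animals. The log2 fold change of Igfbp3 was 0.38, with a 95% confidence interval from -0.37 to 1.14. Igfbp4, a binding protein cleaved by the protease PAPP-A, was at 8898.2, 4212.3 and 5387.7 in controls and at 7036.9, 5529.9 and 7380.8 in cKO animals. Its interval ran from -0.44 to 0.78, and its sign turned without control replicate 2, to -0.07. Igfbp7, which binds IGFs with low affinity and is prominent in vessel walls, was at 12874.2, 8411.2 and 10862.6 in controls and at 10619.0, 11739.6 and 12497.7 in cKO animals. The interval for Igfbp7 ran from -0.32 to 0.59, and without control replicate 2 its log2 fold change was -0.03. For these 3 genes the spread among controls was larger than the difference between groups. Transcripts of 7 other genes share stretches of up to 144 bases with Igfbp4 at 95% identity or more, and exons of Polr2b on the other strand cover 7.03% of Igfbp7, so reads there are uncertain.

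**Figure D4:**
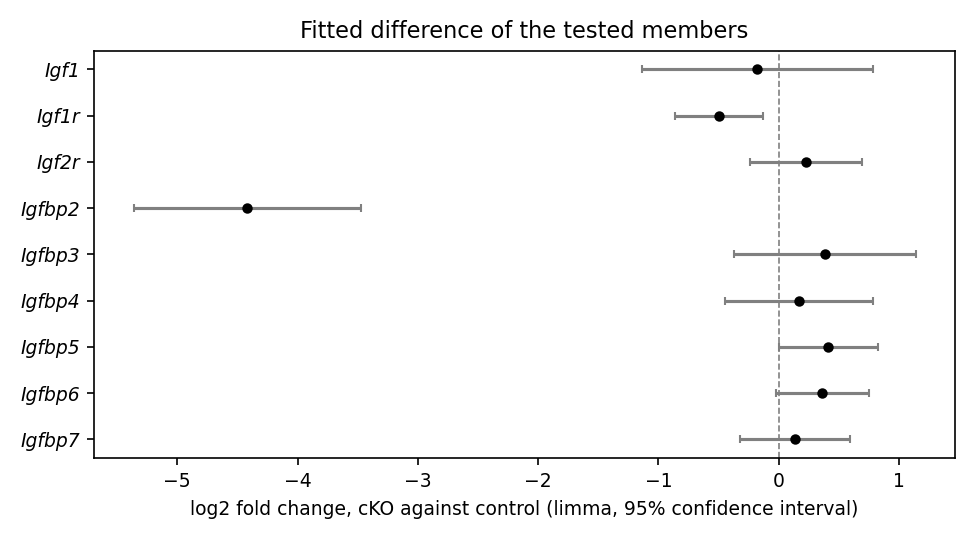
Fitted log2 fold change of cKO against control for the 9 tested members (points), with the limma 95% confidence interval (bars). The interval of Igfbp2 runs from -5.36 to -3.47, and those of the 5 other binding protein genes lie between -0.44 and 1.14.

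The binding protein genes were then set against each other within each library, as the log2 ratio of 2 normalised counts with 1 added to each. Among 15 pairs, the 3 cKO ratios lay apart from the 3 control ratios in 5, and these were the 5 pairs with Igfbp2. Because these 5 pairs share Igfbp2, their separation follows mainly from its own log2 fold change of -4.42. They are therefore not separate evidence. Relative to Igfbp5, Igfbp2 had log2 ratios of -2.58, -2.56 and -3.08 in the control mice, against -6.85, -7.51 and -8.36 in the cKO mice, with group means that differed by -4.83. The other 4 pairs with Igfbp2 differed by -4.55 to -4.80. In the 10 pairs without it, the mean ratios of the groups differed by at most 0.28, as for Igfbp5 relative to Igfbp7. The exact two-sided permutation p was 0.1 for each pair with Igfbp2, the smallest that 3 against 3 animals allow, and 0.3 adjusted over the 15 pairs. The pairs without Igfbp2 had an exact p from 0.3 to 1. Leaving out control replicate 2 raised the number of pairs without overlap to 8, and leaving out control replicate 3 raised it to 6. Groups with fewer libraries lie apart more easily, so these counts are not comparable with the 5 above.

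**Figure D5:**
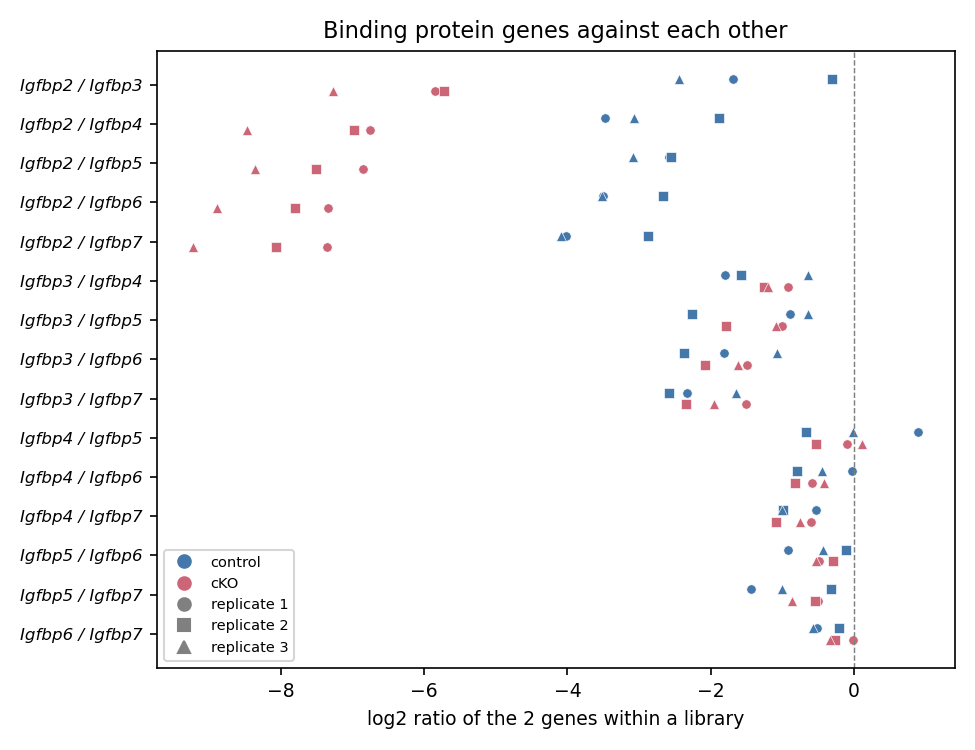
Log2 ratio of the normalised counts plus 1 of 2 binding protein genes within a library, for the 15 pairs, with 1 point for each control and cKO library. In the top 5 rows, which hold Igfbp2, the cKO ratios lie left of the control ratios, with mean differences of -4.55 to -4.83, and in the other 10 rows the groups overlap. The separation in those 5 rows follows mainly from the lower cKO values of Igfbp2 itself.

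Levels of different genes were compared per kilobase of exon. In controls Igfbp7 and Igfbp6 led with 8863 ± 1849 and 7083 ± 897 (SD, n = 3) normalised counts per kilobase, and their ranges overlapped. Igfbp4, Igfbp5 and Igfbp3 followed at 1396 ± 552, 939 ± 167 and 792 ± 330, with each range overlapping the next. Igfbp2 had 465 ± 140 per kilobase in controls, above the level of 90.5% of tested genes, and 22.9 ± 11.98 in cKO animals, above 28.0%. By mean level it ranked below the other 5 binding protein genes in both groups. In the cKO animals it was also below Igf1r in 3 of 3 libraries, although the ranges of these 2 genes overlapped. The order of the other 5 by mean level was the same in controls and cKO animals. Of the summed binding protein transcripts per kilobase, Igfbp2 made up 1.89, 3.72 and 1.81% in the control mice and 0.155, 0.106 and 0.0467% in cKO animals (exact permutation p = 0.1). The lower share restates the lower values of Igfbp2 and is not separate evidence. The sum over all 6 genes was 22830, 16660 and 19130 in the control mice and 22340, 21860 and 23080 in cKO animals, so the total overlapped between the groups (exact permutation p = 0.3). The loss of Igfbp2 transcripts was a small part of that total.

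Of the ligand genes, Igf1 was well measured and Igf2 was not. Igf1 had normalised read counts of 9329.8, 3107.8 and 3584.4 in the control mice and 5222.1, 4217.4 and 3272.8 in cKO animals. The value of control replicate 1, the library with 1.82% of reads on liver markers and 23.8% on mitochondrially encoded genes (8.10 to 13.7% elsewhere), was the highest of the 6, and the remaining controls lay among or below the cKO values. Liver is a main source of circulating IGF1, and the part of liver RNA or of the mitochondrial share in this value was not tested. The log2 fold change of Igf1 was -0.18 ± 0.41 (SE) with a 95% confidence interval from -1.14 to 0.78, and 0.32 without control replicate 1 (limma adjusted p = 0.474). Igf2, a fetal growth factor expressed from the paternal allele, had 0, 6 and 9 reads in the control mice and 5, 2 and 8 in cKO animals, 30 reads in all, and did not pass the filter on low reads. Of its exon bases, 62.8% are shared on the same strand with another annotated gene, so its count is uncertain. A difference in Igf2 was not detectable with these counts.

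Igf1r, which carries the signal of both ligands, was at 708.4, 865.5 and 883.4 in controls and at 634.6, 551.9 and 552.5 in cKO animals. The groups did not overlap, with a log2 fold change of -0.49 ± 0.16 (SE, 95% confidence interval -0.86 to -0.13). The limma p was 0.0139 unadjusted and 0.218 adjusted, and 13.7% of all tested genes had an unadjusted p under 0.05. Scaled by library totals, the groups overlapped. Igf2r, the uptake receptor for IGF2, was at 1415.6, 2196.5 and 1359.4 in controls and at 1863.1, 1729.9 and 2101.6 in cKO animals, with a log2 fold change of 0.23 (95% confidence interval -0.24 to 0.70). Per kilobase, the ratio of Igf1r to Igf2r was 0.277, 0.218 and 0.36 in the control mice and 0.189, 0.177 and 0.146 in cKO animals. This ratio was lower in each cKO library than in any control (exact permutation p = 0.1, the smallest possible). The related insulin receptor gene Insr was at 1325 ± 216 (SD, n = 3) and 1398 ± 21.5. Per kilobase, the ratio of Igf1r to Insr was 0.369, 0.572 and 0.621 in the control mice and 0.371, 0.329 and 0.319 in cKO animals. The ratio to Insr overlapped between the groups (exact permutation p = 0.2).

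No gene of the wider pathway passed the test. Of 49 listed genes outside the members 41 were tested, with 22 fold changes below 0 and 19 above, a median log2 fold change of -0.02 and 5 unadjusted limma p values under 0.05. Over all tested genes 50.3% of fold changes were above 0 and 13.7% had an unadjusted p under 0.05, so these counts were near the background. Of 25 tested genes that carry the signal inside the cell, 18 had fold changes below 0 and 7 above, and none was called. Ptpn11, a phosphatase that relays receptor signals, had a log2 fold change of -0.51 (limma adjusted p = 0.329) and was called without control replicate 1 (-0.74, adjusted p = 0.0491).

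H19 and Igf2bp2 were higher in every cKO library than in any control without passing the test. H19 is a noncoding RNA of the maternal allele that lies 72622 bases from Igf2 on chromosome 7. It was at 13536.2, 20853.2 and 18459.2 in controls and at 22646.6, 32805.2 and 40015.7 in cKO animals, a fitted log2 difference of 0.84 ± 0.26 (limma adjusted p = 0.195). Igf2bp2, which encodes an RNA-binding protein named for its binding of Igf2 transcripts, was at 162.2, 204.9 and 157.5 and at 261.1, 341.3 and 423.2, a difference of 0.95 ± 0.24 (adjusted p = 0.12). DESeq2 called both genes (adjusted p = 0.0213 and 0.0187). Skeletal muscle markers took more reads in each cKO library than in any control, and their part in these values was not tested. Exons of other genes overlap 3.41% of H19 on its strand and 5.73% on the opposite strand. H19 was abundant in libraries in which its neighbour Igf2 was counted at 0 to 9 reads. That count is uncertain, because most exon bases of Igf2 are shared with another annotated gene.

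Genes around the binding proteins showed no call either. Among 7 genes of proteases that cleave binding proteins and their inhibitors, Mmp2, Stc2 and Htra3 had the smallest p values. Stc2, a secreted inhibitor of PAPP-A, was at 1319.2, 662.4 and 142.3 in controls and at 244.4, 173.6 and 161.3 in cKO animals, so the control values spanned the cKO range. Its log2 fold change was -1.39 ± 0.80, and -2.29 with a call without control replicate 3 (limma adjusted p = 0.0145). The gelatinase gene Mmp2 and the serine protease gene Htra3 had log2 fold changes of 0.43 and 0.15. The receptor genes Ghr, for growth hormone, and Lrp1, a large endocytic receptor, had log2 fold changes of 0.18 and 0.19. Among relatives of the binding proteins, Kazald1, Esm1 and Htra1 had values of 0.20, 0.27 and -0.12, and each changed sign without control replicate 2. Igfbp1, a liver-made binding protein, was at 287.7, 1.8 and 25.8 in controls and at 0, 7.8 and 0 in cKO animals, and did not pass the filter on low reads. Igfals, the liver-made subunit of the plasma complex, was at 226.8 in control replicate 1, and elsewhere between 3.6 and 35.1. Both were highest in the library with the most liver markers.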

How the data were processed

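Uterus RNA was extracted with Trizol and sequenced per animal, per the labels. The submitters' processing notes name HISAT2, SAMtools, featureCounts and the build GRCm39, and no version or strand setting is stated. Of 25988 identifiers found in GENCODE vM21 (GRCm38), 25205 had identical position and strand in the table, among them all 10 members, so positions are read as GRCm38. Deposited values are a signal, the reads per gene after division by a size factor: in each library 100% of values were whole reads within 0.01 once its step was divided out. The deposited log2 fold changes, p-values and adjusted p-values are the authors' own, with the tool not stated. Gene lengths are those of the table.

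The main test was limma 3.58.1 (R 4.3.3) fitted to log2(value + 1) with its trend and robust options over 16314 genes kept by edgeR 4.0.16's filterByExpr at a minimum count of 10, with Benjamini-Hochberg adjustment over all of them. The added 1 shrinks fold changes of genes with few reads. Gene ratios and shares were compared with exact permutation tests (scipy 1.17.1). Near-identical transcripts were sought with blastn 2.17.0. Alternatives were other scalings, pseudocounts of 0.5 and 5, other filters, edgeR's quasi-likelihood test and DESeq2 1.42.0 on the recovered reads, limma-voom, a replicate block and leaving out each library. The series text calls each library an individual biological replicate. The scripts were tested on simulated data.

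The members and lists were chosen with earlier results of these data known. The genes named are the members, Tcf21, up to 3 genes with the smallest p of each pathway list, and the 5 genes nearest in profile to a called member. Insr, Igfbp1, Igfals, Des, Actg2, the named stroma markers and the genes beside Igfbp2 were added after their values were seen. Zero reads allow up to 3 reads, a limit of counting error only. Some genes of the signalling list are counted and not reported here by name.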

Additional observations from a re-analysis of the deposited data

How the results depend on the processing

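The call of Igfbp2 as lower, and the absence of a member called higher, held in all 17 other fits, with log2 fold changes of Igfbp2 from -4.79 to -3.97. Of 153 fitted values of the 9 members under these alternatives, 150 kept their sign and side of the threshold. Igf1 turned to 0.32 without control replicate 1, from -0.47 to 0.32 over the fits that left out 1 library. Without control replicate 2 the sign turned for 5 genes: Igfbp4 (-0.070, range to 0.47), Igfbp7 (-0.029, to 0.28), Kazald1 (-0.064, to 0.46), Esm1 (-0.020, to 0.79) and Htra1 (0.37, range from -0.49). DESeq2 called 1 pathway gene lower and 2 higher, against 0 and 0; leaving out 1 library gave 0 to 2 lower and 0 to 0 higher. The number of binding protein pairs without overlap was 5 to 8 when 1 library was left out, and the difference in the Igfbp2 share of binding protein transcripts was -2.70 to -1.75 percentage points, against -2.37. Groups with fewer libraries lie apart more easily, and the causes were not tested.

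The labels give both groups the numbers 1 to 3. Deviations of same-numbered libraries from their group means had correlations of 0.0084, -0.18 and 0.044 across genes. These values show no sign of pairing by number, but with 3 libraries per group they cannot exclude a shared origin. With a replicate block, 1 member was called lower and 0 higher, and 149 and 34 of all genes, against 145 and 45. No library correlated best with the library of its own number in the other group.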
